A study of Homo sapiens with 4 samples.

Results

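SCUBE1, SCUBE2 and SCUBE3 were followed in the human neuroblastoma line SK-N-BE(2), an established culture, with and without knockdown of IGF2BP3, an RNA-binding protein that reads the m6A mark on mRNA. The 3 genes were taken by symbol from a deposited table of 64252 gene rows, and all 3 were among the 19767 genes with enough counts to be tested. SCUBE1 was chosen by its p-value in the comparison of these same libraries, the smallest of all raised genes, so its values in this contrast are a description with no test. SCUBE2 and SCUBE3 joined it as the rest of the family and are described in the same way.

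RNA sequencing was done on 2 libraries of cells carrying a short hairpin RNA against IGF2BP3, here shIGF2BP3, and on 2 libraries of cells carrying a control hairpin, here shControl. The labels give no other difference between the groups, no time after the hairpin was given and no hairpin sequence, and all 4 libraries come from a single cell line. Nothing states that replicates were separate cultures, and the replicate spread behind each p-value may therefore be technical. Total counts lay between 26755695 and 31946756 per library. IGF2BP3 itself was counted 813 and 875 times after knockdown and 4215 and 4347 times in the controls, in the direction its labels give. All 12 listed markers of adrenergic neuroblastoma cells were expressed at a testable level.

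SCUBE proteins are secreted or held at the cell surface, and are named for a signal peptide, a CUB domain and a row of EGF-like repeats. SCUBE2 helps cells release lipid-modified Hedgehog ligand, working with the transporter-like protein DISP1, and can act as a co-receptor for the VEGF receptor KDR. SCUBE3 has been described as a ligand or co-receptor for TGF-beta, BMP and FGF receptors. SCUBE1 is best known from platelets and endothelium and can bind BMP ligands.

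The 3 genes lie on different chromosomes in GENCODE release 29 (GRCh38). SCUBE1 (ENSG00000159307) spans chromosome 22 from 43197283 to 43343388 on the minus strand, SCUBE2 (ENSG00000175356) chromosome 11 from 9019498 to 9138114 on the minus strand, and SCUBE3 (ENSG00000146197) chromosome 6 from 35214419 to 35253079 on the plus strand. Their main transcripts, taken as those with the longest coding sequence, have 22, 23 and 22 exons and coding sequences of 2964, 3084 and 2979 bases. Aligned coding bases were 66.5% identical between SCUBE1 and SCUBE2, 70.0% between SCUBE1 and SCUBE3 and 63.9% between SCUBE2 and SCUBE3.

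The stretch of 90 coding bases that the 3 genes share most closely is shown as the part of the coding sequence most alike over the whole family. Capitals mark the 70 bases that are the same in all 3, and the sequences are read 5′ to 3′ along each gene's strand from GENCODE release 29 transcripts. The stretch crosses from exon 21 to exon 22 in SCUBE1 and SCUBE3 and from exon 22 to exon 23 in SCUBE2, within coding sequence.
SCUBE1: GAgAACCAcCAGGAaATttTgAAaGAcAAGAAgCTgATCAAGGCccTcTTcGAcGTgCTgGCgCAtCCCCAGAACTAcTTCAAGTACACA
SCUBE2: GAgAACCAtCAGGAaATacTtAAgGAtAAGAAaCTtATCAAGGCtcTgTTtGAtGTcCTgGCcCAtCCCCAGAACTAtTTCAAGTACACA
SCUBE3: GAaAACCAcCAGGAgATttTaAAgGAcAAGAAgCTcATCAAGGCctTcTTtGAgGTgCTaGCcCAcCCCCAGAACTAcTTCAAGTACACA

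The longest run of coding bases that any pair shared without a mismatch was the 29 bases ATCGTGGTCCCTGAGATCTTCCTGCCCAT of SCUBE1 and SCUBE2. It lies in exon 19 of SCUBE1 (chromosome 22, 43210084 to 43210112) and exon 20 of SCUBE2 (chromosome 11, 9027405 to 9027433). SCUBE1 and SCUBE3 shared at most 25 bases, and SCUBE2 and SCUBE3 at most 17. Of the distinct words of 31 bases in each main transcript, 3.66% of SCUBE1's, 0.02% of SCUBE2's and 2.48% of SCUBE3's were found, on either strand, in transcripts of other annotated genes. The sequence GGACT, the core of a common m6A site, was searched on the transcript's own strand and occurred 8 times in the SCUBE1 transcript, 9 times in SCUBE2 and 5 times in SCUBE3. That is 0.82, 1.93 and 0.68 per kb of transcript, against a median of 0.94 over 19659 coding genes, of which 87.5% held it at least once. m6A was not measured in these libraries.

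SCUBE1 had the highest level of the family in every library. The knockdown libraries held 9172 and 9041 counts of it, the control libraries 514 and 542. As CPM, counts scaled by library size with TMM factors, that is 323.7 and 329.5 CPM against 19.1 and 17.3 CPM. Both knockdown libraries lay far above both controls, and replicates stayed close together. The group levels were 326.6 ± 4.09 CPM in shIGF2BP3 and 18.2 ± 1.25 CPM in shControl (SD, n = 2 each), a 17.9-fold difference of the means, with a fitted log2 fold change of 4.17 (SE 0.09). In a whole-culture RNA measurement, more cells that express a gene and more RNA per cell cannot be told apart.

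Among the 5120 genes that were higher past the test, 25.9% of those tested, 109 had a larger fitted fold change than SCUBE1, so it was first by p-value and not by fold. The raised gene next in order of p was SCRT1, a transcriptional repressor of neural cells, at 411.4 ± 28.3 CPM against 52.7 ± 1.42 CPM and a log2 fold change of 2.97. Its fold change was smaller than that of SCUBE1.

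SCUBE2 was barely detected. Its counts were 19 and 21 after knockdown and 10 and 14 in the controls, or 0.671 and 0.765 CPM against 0.371 and 0.447 CPM. The groups did not overlap, but the level rested on few counts, and the log2 fold change of 0.79 came with an SE of 0.60. Its shControl counts alone would not have passed the count filter. SCUBE2 entered the tested set through the group where it is high, so the separation of its groups carries no weight.

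SCUBE3 was low as well. Its counts were 50 and 46 after knockdown and 37 and 67 in the controls, or 1.76 and 1.68 CPM against 1.37 and 2.14 CPM. The knockdown libraries fell between the controls, so the groups overlapped. Its log2 fold change was -0.05 (SE 0.37), and it lay between -0.32 without shControl replicate 1 and 0.31 without shControl replicate 2, on either side of 0. SCUBE1 and SCUBE2 were thus the members whose groups did not overlap, as was so for 74.5% of all tested genes. For SCUBE2 this carries no weight, as given above.

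Per kb of exon, which allows genes to be compared with each other, SCUBE1 stood first, SCUBE3 second and SCUBE2 last in every library. In shControl the levels were 1.5 ± 0.103 CPM per kb for SCUBE1, 0.239 ± 0.0737 for SCUBE3 and 0.0512 ± 0.00671 for SCUBE2 (SD, n = 2 each). In shIGF2BP3 they were 26.9 ± 0.337, 0.234 ± 0.00848 and 0.0898 ± 0.00838 CPM per kb (SD, n = 2 each). Neighbours in this order did not overlap in either group. SCUBE1 moved from the 35.7th to the 92.5th percentile of tested genes by level per kb, while SCUBE3 was at the 10.7th and 8.89th and SCUBE2 at the 1.88th and 2.63rd. SCUBE1 made up 87.1% and 80.4% of the family's counts per kb in the shControl libraries and 98.8% in each shIGF2BP3 library.

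**Figure D1:**
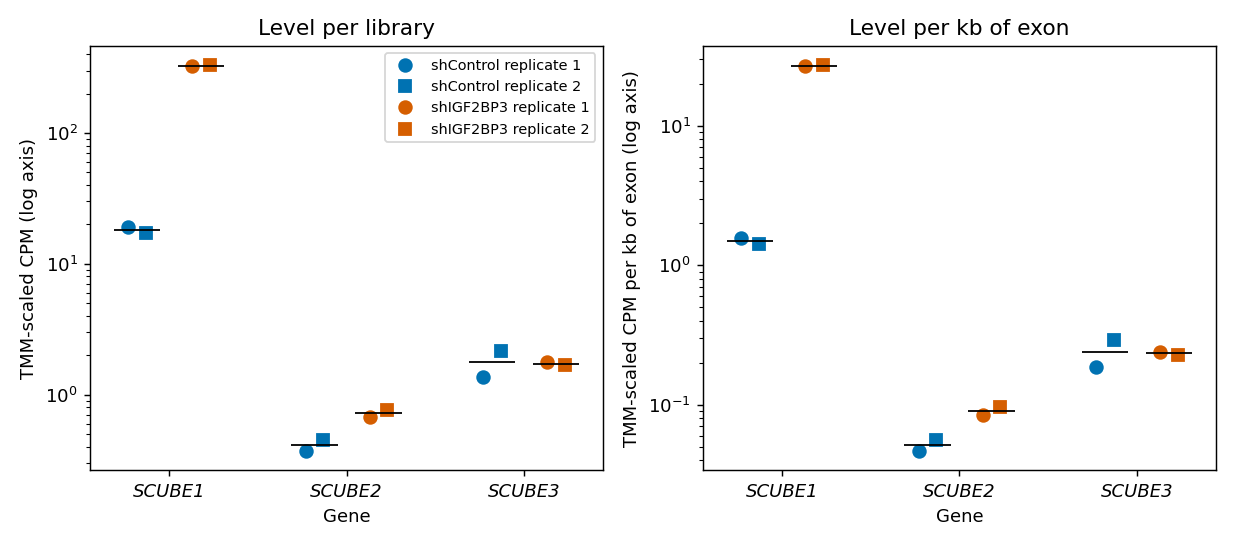
Levels of the SCUBE genes in each library, as TMM-scaled CPM (left) and as CPM per kb of exon (right), on log axes. Points are libraries, black lines are group means, and colours mark shControl and shIGF2BP3. SCUBE1 rises from 18.2 to 326.6 CPM, while SCUBE2 and SCUBE3 reach at most 2.14 CPM in any of the 4 libraries.

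**Figure D2:**
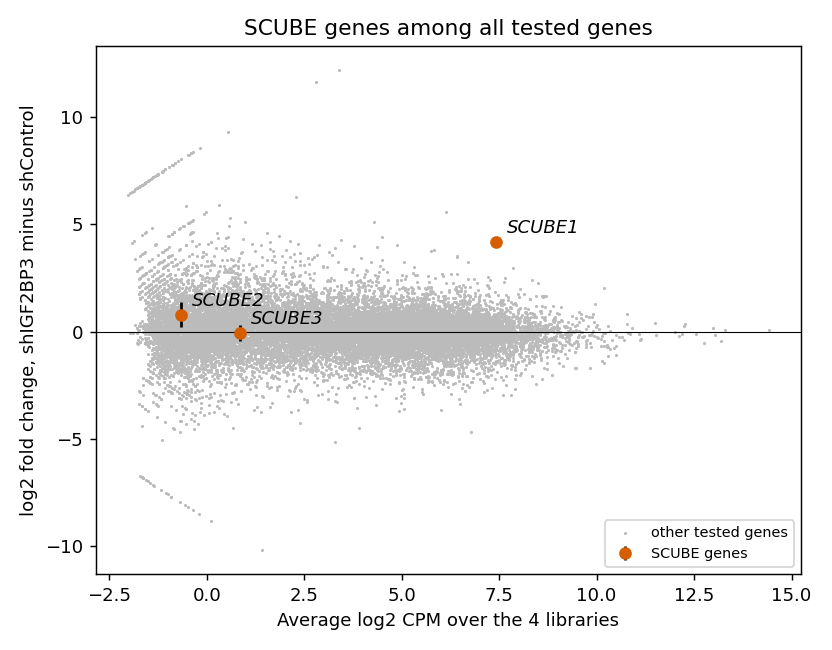
Fitted log2 fold change (shIGF2BP3 minus shControl) against average log2 CPM for the 19767 tested genes in grey, with the SCUBE genes in orange and their SE as bars. SCUBE1 stands at 4.17, and the slanted rows of points at low abundance include genes with 0 counts in a group.

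Markers of endothelium and platelets, the cells SCUBE1 is best known from, were described first. Of 5 tested endothelial markers 0 rose, 1 fell and 4 did not pass. Of 3 tested platelet markers 0 rose, 1 fell and 2 did not pass. The summed level of 11 endothelial markers was 4.52 to 5.33 CPM in shIGF2BP3 and 5.31 to 6.23 CPM in shControl, with PECAM1 and PLVAP at 0 counts in all libraries. The 7 platelet markers summed to 6.71 to 8.16 CPM against 9.58 to 9.87 CPM, with PF4, PPBP, GP9 and TREML1 at 0. Higher in the knockdown, as SCUBE1 was, were the sums of 10 fibroblast markers, 1040 to 1056 CPM against 831.0 to 865.5 CPM, with FAP at 0, and of 8 Schwann cell markers, 73.4 to 81.9 CPM against 15.7 CPM in each control, with SOX10 and CDH19 at 0. Of 9 tested fibroblast markers 5 rose, 3 did not pass and LUM fell, from 211.0 to 99.2 CPM. Of 5 tested Schwann cell markers 2 rose, 0 fell and 3 did not pass, and NGFR, at 68.3 against 10.2 CPM, made up most of the sum. Over all tested genes 25.9% rose and 25.6% fell. The sum of the adrenergic markers was 2830 to 3051 CPM against 3660 to 3780 CPM, and its members went both ways. Of the 12, 8 fell, 2 did not pass, and TBX2 (637.6 against 199.0 CPM) and DBH (137.4 against 43.0 CPM) rose. LUM, NGFR, TBX2 and DBH are named after their values were seen. The part of these cell states in the SCUBE1 difference was not tested.

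The genes whose profile over the 4 libraries was most like that of SCUBE1 were found by the root mean square difference of log2 CPM, each gene centred on its own mean. This profile is mostly the difference between the groups, by which SCUBE1 was chosen, so the likeness is a description only. NUPR1, a stress-induced chromatin protein, was closest at 0.0309, at 572 and 586 counts after knockdown against 30 and 33. TFPI2, a secreted protease inhibitor, differed by 0.147, with 272 and 254 counts against 14 and 18. PPFIA2, DEFB132 and IKBKE, at 0.128, 0.161 and 0.161, had 25 to 36 counts in each shIGF2BP3 library and 0 in shControl, so their likeness depends on the prior count of 2. All of them passed the count filter through shIGF2BP3 alone, where they are high.

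The genes around each SCUBE locus were described next, since position played no part in the choice of members. Within 500 kb of the 3 gene bodies, 7 of 45 tested genes were higher, 15 were lower and 23 did not pass the test, at a median log2 fold change of -0.18. Among the 7 are 2 antisense transcripts inside SCUBE1, which are no evidence apart from it. DEF6, near SCUBE3, is another of the 7. These antisense transcripts and DEF6 passed the count filter through shIGF2BP3 alone, where they are high, so their calls carry no weight. Over all tested genes 25.9% were higher and 25.6% lower, with a median of 0.01. Apart from transcripts inside SCUBE1 itself, no tested gene within 500 kb of SCUBE1 had a log2 fold change above 0.89, the value of ARFGAP3.

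Next to SCUBE1, TTLL12 lies 10.2 kb beyond its 3′ end and was lower, at 121.4 and 111.1 CPM in shIGF2BP3 and 141.3 and 150.0 CPM in shControl (log2 -0.33, adjusted p = 0.00126, edgeR's quasi-likelihood test). MPPED1, 67.8 kb away on the other side, had low counts, at 0.141 and 0.292 against 0.854 and 0.383 CPM. It passed the count filter through shControl alone, where it is high, so its values are given with no test. MCAT, a mitochondrial fatty acid synthesis enzyme 53.9 kb away, fell by 1.10 on the log2 scale (SE 0.16, adjusted p = 2.16e-05). Of these genes flanking SCUBE1, TTLL12 and MCAT were thus lower.

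Antisense transcripts annotated inside SCUBE1 also had higher counts in the knockdown. SCUBE1-AS1 was counted 27 and 10 times after knockdown and 0 and 3 times in the controls. SCUBE1-AS2 had 20 and 11 counts against 0 and 0. Its mean knockdown CPM was 5.34-fold the mean with each control library set to its floor, 3 counts. Counting error of the knockdown counts is left out, so the true fold could be smaller. A count of 0 allows for up to 3 counts, which covers counting error only and takes each count as a tally of reads. Whether the counting used strand is not given in the sources used here, and each antisense count was at most 0.554% of the SCUBE1 count of its library. Reads of SCUBE1 and of these partners therefore cannot be told apart, and both rows entered the tested set through the group where they are high, so their values are given with no test.

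Around SCUBE2, the neighbour DENND5A ends 0.7 kb upstream of its start and stood at 169.1 and 162.5 CPM against 159.4 and 167.2 CPM (log2 0.02, SE 0.07, adjusted p = 0.819). NRIP3, 15.4 kb downstream, did not pass (log2 -1.07, SE 0.49, adjusted p = 0.0784), but passed without shControl replicate 2 (log2 -1.52, adjusted p = 0.0228). Farther out, TRIM66 fell by 1.77 and WEE1, a kinase that holds back entry into mitosis, fell by 1.91 on the log2 scale, with adjusted p of 6.19e-08 and 4.37e-12.

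Around SCUBE3, ZNF76, 5.8 kb downstream, was higher at 56.2 and 55.7 CPM against 41.4 and 40.9 CPM (log2 0.44, SE 0.09, adjusted p = 0.000457). DEF6, 44.8 kb away, had 6 and 10 counts in shControl and 23 and 32 in shIGF2BP3 (log2 1.83). Its shControl counts alone would not have passed the count filter. It was tested through the group where it is high, so its values are given with no test. DEF6 counts among the higher genes above, a call that ended with DESeq2, without either shControl replicate and without shIGF2BP3 replicate 2. SCUBE3-AS1, which overlaps SCUBE3, had 58 and 76 counts against 86 and 119 and did not pass (log2 -0.55, adjusted p = 0.139). TCP11, on the other side, had at most 2 counts in any library.

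**Figure D3:**
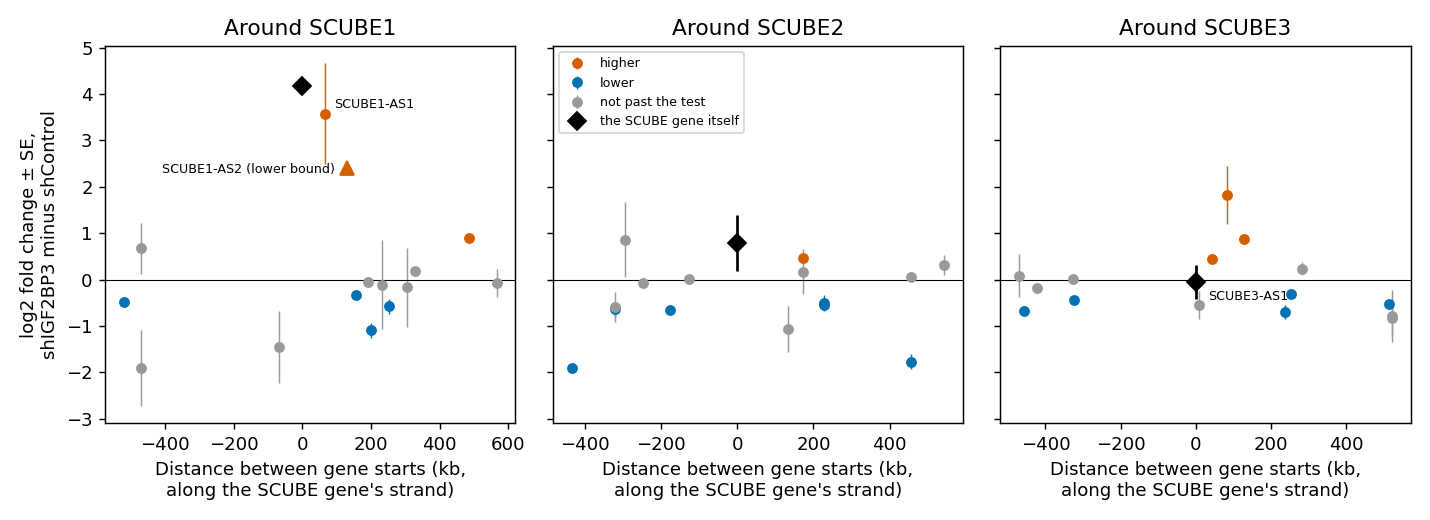
Log2 fold change (shIGF2BP3 minus shControl) of tested genes within 500 kb of each SCUBE gene, against the distance between gene starts in kb along that gene's strand. Circles are neighbours coloured by call with SE bars, and diamonds are the SCUBE genes. The triangle, labelled a lower bound, sets each control library of SCUBE1-AS2 to 3 counts and leaves out error in its knockdown counts. SCUBE1-AS1, SCUBE1-AS2 and DEF6 were tested only because of their counts in shIGF2BP3. SCUBE1, at 4.17, stands apart from its neighbours except the antisense transcripts inside it.

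Hedgehog signalling was described because SCUBE2 acts at its first step. Of the ligands, SHH and IHH had 0 counts in all libraries, and DHH, with 8 and 2 counts after knockdown and 0 and 13 in the controls, was not tested. Of the 4 tested genes listed for ligand making and release, with DISP2 and DISP3 as relatives of DISP1, 3 rose and 1 fell (median log2 fold change 0.75). Over all tested genes 25.9% rose and 25.6% fell. HHAT, which attaches the palmitoyl group to the ligand, rose from 14.2 and 16.2 to 29.9 and 25.2 CPM (log2 0.86, SE 0.13, adjusted p = 3.66e-05). DISP1, the partner of SCUBE2, rose by 0.64 (SE 0.23, adjusted p = 0.0242). That call ended with DESeq2 (adjusted p = 0.0835), without shControl replicate 2 (0.150) and without shIGF2BP3 replicate 2 (0.168). Its relative DISP3 rose by 1.63 (adjusted p = 1.36e-09) and DISP2 fell by 0.47 on the log2 scale (adjusted p = 0.00495). The DISP2 call ended without shControl replicate 2 (adjusted p = 0.104) and when low counts were not filtered (0.0553).

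Of 8 tested Hedgehog receptors and surface binders 5 fell, 1 rose and 2 did not pass (median log2 -0.76), where 25.6% of all tested genes fell and 25.9% rose. SMO, the membrane protein that passes the signal into the cell, had 14.9 and 9.73 CPM in shIGF2BP3 and 30.2 and 27.4 CPM in shControl (log2 -1.22, SE 0.16, adjusted p = 7.66e-06). The co-receptors CDON and GAS1 fell by 0.87 and 1.57, while the co-receptor BOC rose by 0.43, with adjusted p of 1.39e-08, 0.000228 and 0.000174. Without shIGF2BP3 replicate 1 the GAS1 value was -2.16. PTCH1, both the ligand's receptor and a target gene of the pathway, fell by 0.30 (SE 0.08, adjusted p = 0.00324), from 103.1 and 113.1 to 85.8 and 89.5 CPM. GPC3, a surface proteoglycan that binds the ligand, fell by 1.99 (adjusted p = 3.25e-07). GPC6, a proteoglycan related to GPC3, did not pass (log2 0.08, adjusted p = 0.614).

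In the transduction and target list 3 of 11 tested genes rose, 4 fell and 4 did not pass (median log2 -0.21). The shares over all tested genes were 25.9% higher and 25.6% lower. GLI1, the target gene most used as a readout of the pathway, was counted 10 and 18 times after knockdown and 22 and 53 times in the controls. Its log2 fold change of -1.35 (SE 0.56) did not pass (adjusted p = 0.0538), but passed without shControl replicate 1 (0.0164) and with the replicate block (0.0382). GLI2 rose by 0.27 (SE 0.11, adjusted p = 0.0467), and this call ended under 9 of 11 alternatives, with every single library left out among them. GLI3 had 6 counts in 1 library and 0 in the others. GPR161, a ciliary receptor that restrains the pathway, was lower (log2 -1.01, adjusted p = 1.06e-06) and the kinase STK36 rose by 0.54 (adjusted p = 0.000120). The ciliary kinesin KIF7 fell by 0.42 (adjusted p = 0.00910) and the cyclin CCND1 by 0.24 on the log2 scale (adjusted p = 0.00206). The KIF7 call ended without shControl replicate 2 (adjusted p = 0.0804), without shIGF2BP3 replicate 2 (0.121) and with low counts kept (0.0772).

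BMP and TGF-beta genes, the setting in which SCUBE1 and SCUBE3 have been placed, moved both ways. Of 10 tested ligands 2 rose, 3 fell and 5 did not pass (median log2 0.18), where 25.9% of all tested genes rose and 25.6% fell. TGFB3 stood at 16.8 and 14.9 CPM against 4.98 and 4.79 CPM (log2 1.70, SE 0.18, adjusted p = 3.97e-07), and TGFB1 rose by 0.74 (adjusted p = 0.00163). BMP4 had low counts, 31 and 37 in shControl and 14 and 5 in shIGF2BP3 (log2 -1.76). The log2 value was -2.65 without shIGF2BP3 replicate 1 and -1.23 without replicate 2. It passed the count filter through shControl alone, where it is high, so its values are given with no test. BMP4 counts among the 3 that fell, a call that ended with DESeq2, with low counts kept, without shControl replicate 2 and without shIGF2BP3 replicate 2. GDF11 fell by 0.26 (adjusted p = 0.0127), and that call ended without shControl replicate 1 (0.0610), without shIGF2BP3 replicate 1 (0.0738) and with library totals alone (0.0732).

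Of 15 receptors and co-receptors 3 rose, 5 fell and 7 did not pass (median log2 -0.12), beside 25.9% higher and 25.6% lower over all tested genes. The type I receptor ACVR1 was at 122.1 and 123.8 CPM against 40.8 and 43.0 CPM (log2 1.55, SE 0.08, adjusted p = 3.62e-11). ACVR1B rose by 0.54 (adjusted p = 1.22e-05), BMPR1B fell by 0.46 (adjusted p = 2.43e-05), and RGMB, a BMP co-receptor, fell by 1.22 (adjusted p = 3.49e-08). Of the 8 SMAD genes 3 rose, 2 fell and 3 did not pass (median log2 0.07). SMAD6, an inhibitor of BMP signalling that is itself induced by it, was at 134.7 and 131.9 CPM against 36.7 and 38.9 CPM (log2 1.82, SE 0.08, adjusted p = 5.9e-12). SMAD9 rose by 0.78, while SMAD3 and SMAD5 fell by 0.94 and 0.69 on the log2 scale, with adjusted p of 1.05e-08, 4.7e-08 and 6.82e-07.

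The VEGF receptor KDR, which SCUBE2 can assist, had 0 counts in every library. Of the other 9 VEGF ligands and receptors 4 rose, 2 fell and 3 did not pass (median log2 -0.25). VEGFA rose by 0.71 and the co-receptor NRP1 by 0.75, while NRP2 fell by 1.40 on the log2 scale, with adjusted p of 3.23e-07, 3.95e-07 and 1.61e-11. FLT1 rose by 1.92 (adjusted p = 0.000688), from 22 and 28 counts to 116 and 66. FGF8, a ligand for which SCUBE3 has been called a co-receptor, had at most 3 counts. In the list of FGF8 and its receptors 6 genes were tested, of which 4 fell and 0 rose (median log2 -1.03), against 25.6% and 25.9% of all tested genes. FGFR1, FGFR2, FGFR4 and FGFRL1 were lower, at log2 fold changes of -0.87, -2.95, -1.19 and -3.68 and adjusted p of 1.35e-08, 2.86e-08, 0.000179 and 4.84e-08. FGFRL1, with 12 and 28 counts after knockdown, was at -4.43 without shIGF2BP3 replicate 2 and -3.17 without replicate 1.

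Genes that share a building block with the SCUBE proteins were counted last. Of 27 tested genes with a CUB domain 15 rose, 8 fell and 4 did not pass (median log2 0.75). Over all tested genes 25.9% rose and 25.6% fell. PCOLCE, an enhancer of procollagen processing, was at 566.2 and 522.3 CPM against 240.5 and 232.6 CPM (log2 1.20, SE 0.07, adjusted p = 5.99e-11). SEZ6L and DCBLD2 rose by 1.45 and 1.29 (adjusted p = 1.71e-11 and 5.21e-11), and NRP2, above, is also a CUB protein. None of these fold changes reached the 4.17 of SCUBE1. Of 28 tested genes of proteins with EGF-like repeats, most of them secreted, 7 rose, 9 fell and 12 did not pass (median log2 -0.03). FBLN1 fell by 2.10 and DLK1 by 2.62, while THBS1 rose by 1.90 and LTBP2 by 2.30 on the log2 scale, with adjusted p of 3.9e-13, 6.02e-13, 1.96e-11 and 3.49e-10. Over all 10 lists, each gene counted once, 40 of 124 tested genes rose and 42 fell, where 51.5% of all tested genes passed in either direction.

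**Figure D4:**
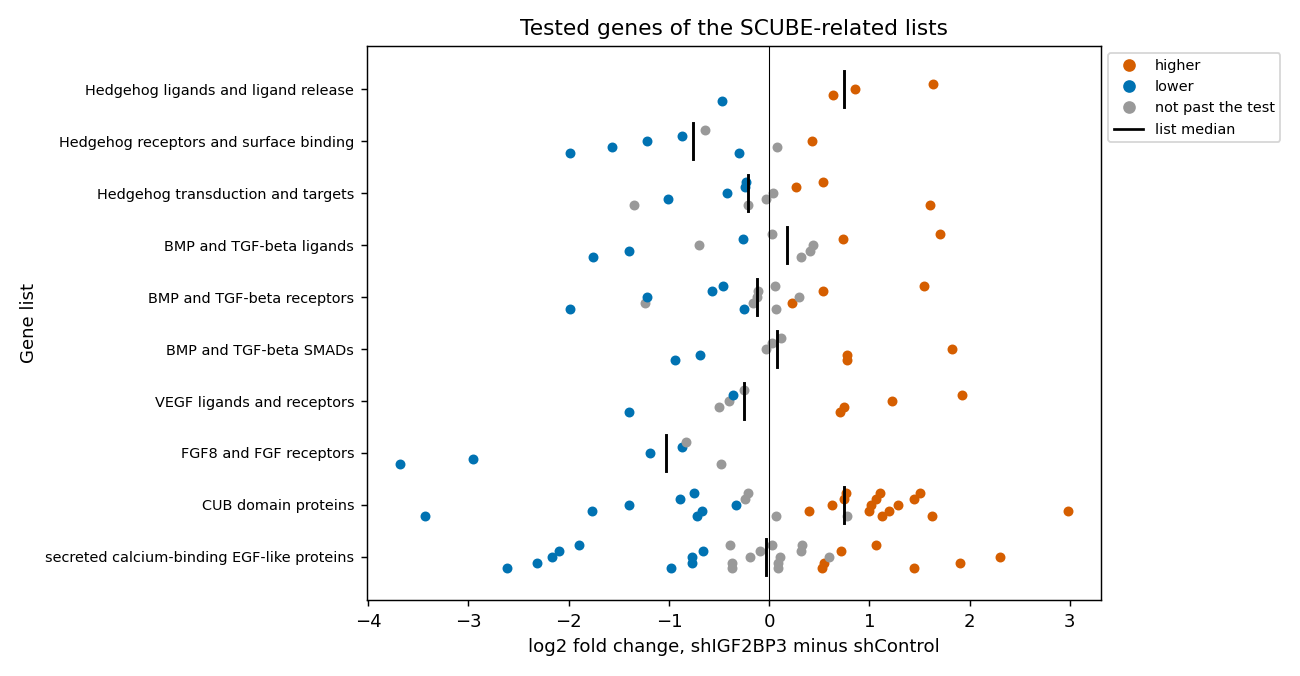
Log2 fold change (shIGF2BP3 minus shControl) of each tested gene in the 10 lists, coloured by call, with a black line at each list's median. The CUB domain list has its median at 0.75 and the FGF receptor list at -1.03, and no gene of any list reaches the 4.17 of SCUBE1.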

How the data were processed

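The authors deposited whole-number counts per Ensembl gene for 4 libraries. Per the submitters' processing notes, HISAT2 2.2.0 and StringTie were used with hg38. Annotation release, strand setting and how reads were counted: not given in the sources used here. Symbols came from a table of gene names (56105 rows) and GENCODE release 29 (486 more), and 7661 rows had none. The test was that of edgeR 4.0.16 (R 4.3.3): filterByExpr with a minimum count of 10, TMM scaling, the robust quasi-likelihood test and Benjamini-Hochberg adjustment over all 19767 tested genes at 0.05. Depth was 26755695 to 31946756 counts, so a count of 0 allows up to 0.0958 to 0.111 CPM. Replicates differed by more than sampling noise (chi-square per degree of freedom 5.25 and 5.94). CPM per kb used the union of annotated exons. Coding sequences were aligned with MAFFT 7.526. Simulated counts were used to test the scripts. Members and lists were chosen with earlier results of these data known. List and neighbour counts include genes that passed the count filter through 1 group alone. Named genes are the SCUBE genes, IGF2BP3, the next raised gene by p, up to 4 genes of each list by smallest p, all tested Hedgehog ligand, receptor and GLI genes, flanking, overlapping or 2-fold changed neighbours, and the 5 protein-coding genes most like SCUBE1; 1 gene under this rule is not reported here. Values of the profile comparison are log2 CPM with a prior count of 2. Alternatives were other scalings, no filter, DESeq2 1.42.0, limma 3.58.1 voom, the replicate block, an older edgeR fit added after seeing the data, and leaving out each library.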

Additional observations from a re-analysis of the deposited data

How the results depend on the processing

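SCUBE1 kept a log2 fold change of 4.08 to 4.25 under the 11 alternatives and 4.08 to 4.24 without single libraries. SCUBE2 lay between 0.67 and 0.92, and SCUBE3 between -0.32 and 0.31, a sign that also turned with library totals alone (0.03). With the longest transcript as length, SCUBE1 was at 33.3 and 1.86 CPM per kb in shIGF2BP3 and shControl and SCUBE2 at 0.154 and 0.088, and the order of the genes was the same. Around the loci, a window of 250 kb gave 6 higher and 9 lower of 27 tested genes. A window of 1000 kb gave 17 higher and 25 lower of 84, beside 7 and 15 of 45 at 500 kb. The median was -0.11, -0.02 and -0.18 in these windows. Over all tested genes 25.9% were higher and 25.6% lower, with a median of 0.01. The replicate block gave 10509 genes past the test against 10178, and since same-numbered libraries barely deviated together (correlation 0.0208), no pairing was assumed. Without single libraries 8800 to 9442 genes passed, and 8869 with DESeq2. Of 702 values of single named genes, 29 lost their call, 3 gained it and 0 calls changed sign, while DENND5A, which did not pass, went from 0.02 to -0.01 without shControl replicate 1. Few counts limit SCUBE2, SCUBE3 and the antisense rows.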
